A study of Saccharomyces cerevisiae with 18 samples.

Results

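Yeast in which glutamine replaces lysine at residues 4, 9, 14, 18, 23 and 27 of histone H3 was compared with its wild type, on 3 arrays each of the 18 arrays in the series. All arrays that the labels give to the 2 genotypes were used and none was chosen by its values. The substituted strain (CLY460) is called H3K6Q here, for its 6 changed lysines and not for a residue number, and the wild type (NSY429) is called WT. A pair of other mutants was set directly against H3K6Q. H3tailD (NSY458, 2 arrays) lacks residues 1 to 28 of H3, and H4K4Q (RMY491, 2 arrays) has glutamine in place of the 4 lysines at residues 5, 8, 12 and 16 of H4. Each one-colour array (Affymetrix YG_S98) measured total RNA of Saccharomyces cerevisiae, and the labels name 1 strain for each genotype. The sources used here do not give growth medium, cell density, mating type, the gene copies that supply the histones, or the number of cultures behind a group. The p-values therefore rest on the spread from array to array, part of which may be technical.

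The amino-terminal tail of histone H3 leaves the nucleosome core and carries lysines that acetyltransferases such as Gcn5 modify and deacetylases such as Rpd3 and Hda1 restore. Glutamine has no charge and is widely used as a stand-in for acetyl-lysine, although it cannot be methylated or deacetylated. The substitution also removes lysine 4, the residue that Set1 methylates at active genes. In yeast, acetylation of the H3 and H4 tails is known for its parts in promoter activation, in silencing near chromosome ends and at the silent mating-type loci, and in the switch between growth and stress programmes.

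Each of the 9275 probe sets other than controls has a signal in arbitrary units on a linear scale. Signals under 140.2, the pooled 25th percentile, were raised to that floor, and the 7851 probe sets above it on at least 2 of the 18 arrays were tested. A probe set or gene is called when its limma adjusted p is under 0.05, and genes are counted by 1 probe set each (5447 genes). Correlations across probe sets ran from 0.9646 to 0.9803 between H3K6Q arrays and from 0.949 to 0.9588 between WT arrays, and H3K6Q arrays correlated with WT arrays at 0.892 to 0.9421. No H3K6Q array shared its sampling day with a WT array, and H3K6Q arrays 1 and 2 were of the same day. With those 2 arrays averaged, 1419 probe sets were called against WT in place of 2004. All 3 H3K6Q arrays and WT array 3 were of the later sampling period, while WT arrays 1 and 2 were of the earlier one, and the header of WT array 3 is the 1 that names an RNA amplification kit. The ratio of actin signal at the 3′ end to the 5′ end was 1.193, 1.385 and 1.542 on H3K6Q arrays, against 1.414, 1.371 and 1.372 on WT arrays. WT array 2 lay farthest from H3K6Q (0.892 to 0.9075). H3K6Q array 1 was under the floor for 35 genes that both other H3K6Q arrays read above 4 floors, 8 of them called lower, whereas the same count was 0 or 1 on each of the other 5 arrays. Amplification, sampling period and the state of array 1 were not tested as causes of any result, and values that rest on array 1 are given with and without it.

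RPD3, the deacetylase gene deleted in other strains of the series, had signals of 728.3, 799.0 and 685.4 on H3K6Q arrays, against 1001.4, 959.2 and 689.7 on WT arrays. The log2 change was -0.24 ± 0.19 (SE) and was not called (adjusted p = 0.376). The probe sets cannot check the substitution itself, since their signals give an amount of RNA and not the residues it encodes. Of the 3 probe sets that name HHT1 and HHT2 jointly, 1 was called lower, with signals of 8156.1, 8182.1 and 8477.4 on H3K6Q arrays and 12242.1, 11441.7 and 9567.1 on WT arrays (log2 change -0.41 ± 0.13, adjusted p = 0.0322). The brightest of the 3 gave 31413.9, 36337.3 and 50114.8 on H3K6Q arrays and 44787.8, 41927.9 and 57388.6 on WT arrays, groups that overlapped (-0.30 ± 0.24, adjusted p = 0.378). The third stayed near or under the floor on all 6 arrays. The probe set for HHF1 and HHF2, the H4 genes, changed by 0.12 ± 0.19 (adjusted p = 0.719).

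Against WT, 723 genes were called higher in H3K6Q, which is 13.3% of those tested, and 887 were called lower, which is 16.3% (29.6% in either direction). Large changes were more often rises: 379 genes (6.96%) rose and 290 (5.32%) fell at least 2-fold, 52 rose and 18 fell at least 4-fold, and 4 rose and 1 fell at least 8-fold. The median log2 change over all genes was -0.10. The plot of change against signal shows called genes at all signal levels, with the floor drawing in the changes of dim genes. When the sampling period was entered as a block, which in effect sets H3K6Q against WT array 3 alone, 677 probe sets were called in place of 2004, and 597 were called both ways. Period-block values are therefore given below where the block changes a group's calls. Over all 7851 probe sets the period block left 443 called higher and 234 called lower, in place of 925 and 1079. The chip lot as a block left 260 and 158. List counts under a block are read against these totals. The chip lot block in effect sets H3K6Q arrays 2 and 3 against WT array 3 alone. The period and lot blocks thus rest on the same WT array and are not separate checks. Of the 159 called genes that meet the rule for naming, 37 lost it when some 1 of the 6 arrays was left out, and these were ATP6, BRE1, CDC5, CLB2, CLN2, COT1, CSE4, DMC1, GAL2, HSP31, HST3, HST4, HTB2, INO2, MET6, MRPL6, PDC5, PHO81, POL1, PRE6, RME1, RPC11, RPL36B, RPS27A, RSC8, RXT3, SAS2, SAS3, SFC1, SNF6, SNR76, SPS1, SPT8, SUM1, TAT1, TDH1 and VTC4.

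**Figure D1:**
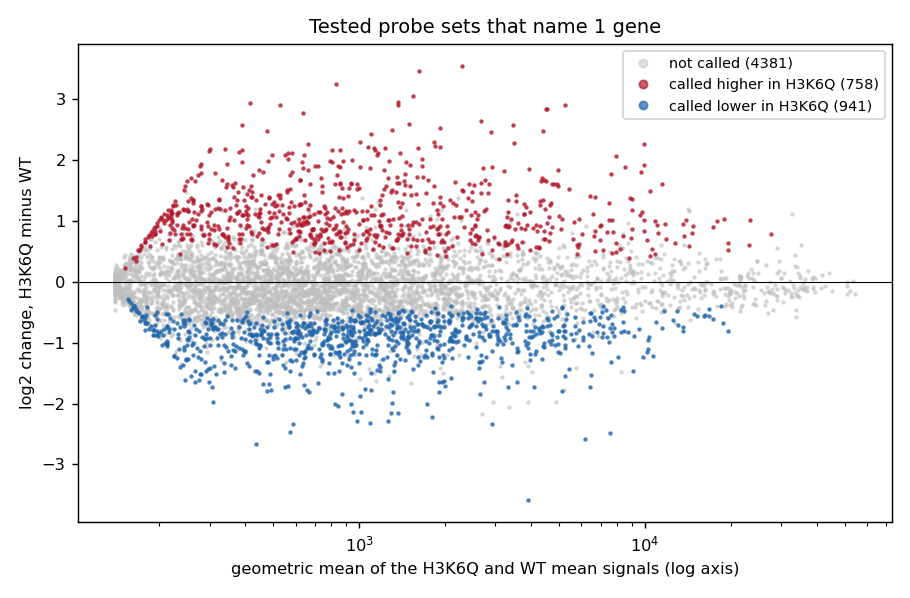
Each point is a tested probe set that names 1 gene, with the geometric mean of the H3K6Q and WT mean signals on a log axis against the log2 change, H3K6Q minus WT. Of 6080 probe sets, 758 were called higher in H3K6Q (red) and 941 lower (blue), and changes of over 4-fold are more often above 0 than below it.

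The largest rise was that of DPI8, with signals of 7439.0, 7188.6 and 8501.5 on H3K6Q arrays against 588.7, 911.7 and 531.3 on WT arrays. The groups lay far apart, and DPI8 rose 11.7-fold (log2 change 3.55 ± 0.32, adjusted p = 1.93e-05). GSP2, a close copy of the yeast Ran GTPase gene, gave 5251.6, 4759.2 and 4594.8 on H3K6Q arrays and 830.0, 167.8 and 614.7 on WT arrays, a rise of 3.46 ± 0.42 on the log2 scale. WT array 2 was the lowest here, as it was for RTC3, which rose by 3.25 ± 0.32 with 2837.7, 2748.7 and 1924.4 on H3K6Q arrays and 385.2, 120.9 and 321.0 on WT arrays. APE1, a vacuolar aminopeptidase, rose by 3.06 ± 0.35, and STF1, a regulator of the mitochondrial ATP synthase, rose by 2.91 ± 0.39. TFS1, an inhibitor of the vacuolar carboxypeptidase Y, had 6326.0, 6603.2 and 6247.2 on H3K6Q arrays and 1546.9, 586.1 and 1197.3 on WT arrays (2.64 ± 0.30). GOR1, a glyoxylate reductase gene, had the smallest standard error of the 15 largest rises, with 1768.1, 1743.8 and 1451.5 on H3K6Q arrays and 321.8, 200.5 and 213.7 on WT arrays (2.78 ± 0.20, adjusted p = 5.02e-06). SNO1 and SNZ1, neighbours that act in vitamin B6 synthesis, rose by 2.90 ± 0.52 and 2.60 ± 0.36. PIR3, a cell wall glycoprotein gene, read 11007.7, 12515.4 and 10265.0 on H3K6Q arrays and 2387.0, 666.7 and 2421.3 on WT arrays, and rose by 2.84 ± 0.38. AIM17 rose by 2.94 ± 0.34 and was above the floor on only 1 WT array. Of these genes PIR3 alone lost its call with the chip lot as a block (adjusted p = 0.0658), and DPI8, GSP2, RTC3, APE1, STF1, TFS1, GOR1, SNO1, SNZ1, PIR3 and AIM17 all kept their calls with the period block.

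**Figure D2:**
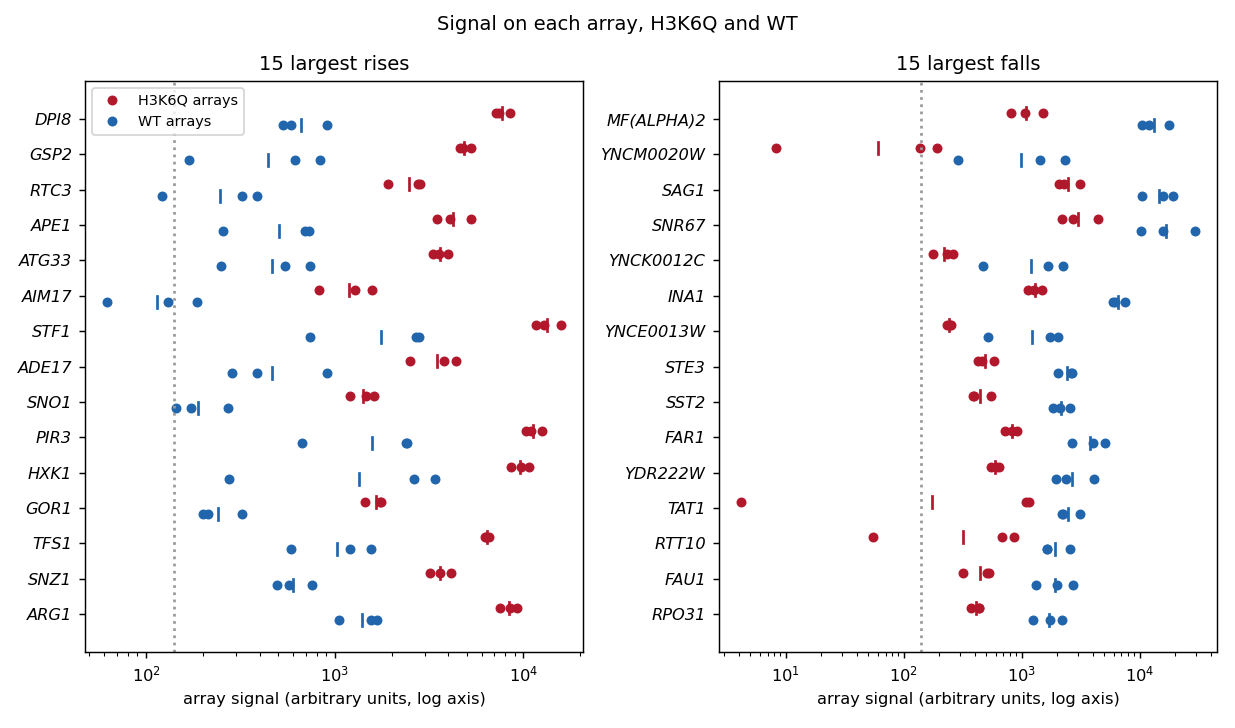
Signals of the 15 genes with the largest rises and the 15 with the largest falls on each H3K6Q array (red, upper row of each gene) and each WT array (blue, lower row), on a log axis, with short lines at the geometric means and a dotted line at the floor of 140.2. The genes were picked only among those whose groups do not overlap, so the gaps between groups follow from the selection. WT array 2 is the low point of many rises, and H3K6Q array 1 stands apart at TAT1 (4.2) and RTT10 (55.1).

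Among the largest falls outside the mating genes, INA1 had 1119.4, 1275.7 and 1493.2 on H3K6Q arrays against 5978.7, 7529.2 and 6165.7 on WT arrays, a fall by 2.34 on the log2 scale (SE 0.19, adjusted p = 1.87e-05). FAU1, a folate enzyme gene, fell by 2.14 (316.1, 525.1 and 507.9 on H3K6Q arrays, 1978.6, 2726.8 and 1330.9 on WT arrays), and YDR222W fell by 2.16. TAT1, an amino acid permease gene, gave 4.2, 1081.7 and 1159.0 on H3K6Q arrays and 2239.2, 3111.1 and 2198.2 on WT arrays. Its log2 change was -2.15 with all arrays and -1.15 without H3K6Q array 1 (adjusted p = 0.0155 and 0.00825), and its call was lost without WT array 2 (adjusted p = 0.0589). RTT10, which acts in tRNA methylation, gave 55.1, 676.4 and 857.7 on H3K6Q arrays and 1638.8, 2570.6 and 1651.4 on WT arrays, with log2 changes of -2.14 and, without H3K6Q array 1, -1.33 (adjusted p = 0.00687 and 0.0048). YNCM0020W, YNCK0012C and YNCE0013W, annotated as tRNA genes, fell by 2.66, 2.46 and 2.33, on probe sets of a kind that can bind other sequences. Their WT signals varied widely, from 286.2 to 2328.4 for YNCM0020W, with WT array 1 the lowest for all 3.

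The genes that build ribosomes were lower in H3K6Q nearly as a body. Of 55 genes of the SSU processome, which makes the small ribosomal subunit, 46 fell and 9 were not called, and of 59 genes of large-subunit assembly 55 fell and 4 were not called. Over all genes tested 16.3% fell. The median log2 changes were -0.92 and -0.95, beside -0.10 over all genes. On single arrays the SSU processome median, relative to the WT mean, was -0.86, -0.93 and -0.97 on H3K6Q arrays and -0.10, 0.37 and -0.23 on WT arrays, so that the H3K6Q arrays lay close together and WT array 2 highest. UTP22, an SSU processome subunit, had 1293.5, 1161.5 and 1149.9 on H3K6Q arrays and 3162.8, 4752.3 and 3071.9 on WT arrays (log2 change -1.58 ± 0.17, adjusted p = 6.14e-05). SOF1, another subunit, fell by 1.48, and the helicase gene DRS1 and the processing factor gene CGR1 fell by 1.59 and 1.5. NOC4 and RRP15 had the largest called falls of their lists, but read only 108.3 and 22.7 on H3K6Q array 1. NOC4 read 702.4 and 749.0 on the other H3K6Q arrays and 1404.5, 2041.9 and 1653.2 on WT arrays, and its log2 change was -2.0 with H3K6Q array 1 and -1.21 without it. For RRP15 these changes were -2.01 and -1.29, with 682.3 and 585.2 on the other H3K6Q arrays and 1452.3, 2024.5 and 1246.9 on WT arrays. With the period block 12 genes of the SSU processome and 6 of large-subunit assembly fell, with medians of -0.67 and -0.68, and SOF1, DRS1, CGR1, NOC4 and RRP15 lost their calls. Without WT array 2, 33 of each list fell, and with the chip lot as a block 9 and 2 fell. Calls fell over the whole table as well. Of all 7851 probe sets 1079 were called lower without a block, 234 with the period block and 158 with the chip lot block. Without WT array 2 the number was 644.

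RNA polymerase I, which transcribes the ribosomal RNA, had 7 of 10 genes lower and 3 not called (median -0.88), while 16.3% of all genes fell. RPA190, its largest subunit, had 3668.5, 3384.0 and 2838.2 on H3K6Q arrays against 9710.3, 9020.5 and 7865.6 on WT arrays (-1.43 ± 0.18, adjusted p = 0.000182). The period block left 3 falls in this list. RPA135, the second-largest subunit, fell by 1.02, and RPA12 fell by 1.00 in all arrays but not with the period block (adjusted p = 0.23). RNA polymerase III, the enzyme for tRNA and 5S RNA genes, also had 7 of 10 genes lower (median -0.67), but 3 fell without WT array 1 or 2, 4 fell without H3K6Q array 2 or 3, and 1 fell with the period block. That gene was RPO31, the largest subunit, which had 431.0, 433.9 and 370.6 on H3K6Q arrays and 1244.0, 2202.6 and 1752.5 on WT arrays (-2.04 ± 0.23, adjusted p = 8.22e-05). RPC17 and RPC11 fell by 1.19 and 0.75, and both calls were lost with that block.

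The ribosomal proteins themselves moved little. Of 80 genes for cytosolic ribosomal proteins 4 fell and 76 were not called, a smaller share than the 16.3% of all genes, and the median log2 change was -0.14. The count was 1 without H3K6Q array 1 or 2 or WT array 2, and all 4 calls were lost with the period block (median -0.38). RPS9A had 5130.2, 6680.5 and 7838.7 on H3K6Q arrays and 10887.2, 13150.4 and 10582.6 on WT arrays, and fell by 0.83. RPS27A and RPL36B fell by 0.61 and 0.56, and each lost its call without H3K6Q array 1 or 2 and without WT array 2 (adjusted p = 0.0774 and 0.129 without the WT array). Many of these genes have near-identical copies, so that probe sets for RPS9A and RPL36B can bind the RNA of both copies. Of 68 mitochondrial ribosomal protein genes 8 rose, near the 13.3% of all genes, with a median of 0.17. MRPL28 rose by 1.04, MRPL51 by 0.74 and MRPL6 by 0.74, and the rises in that list numbered 3 to 5 without any 1 of the H3K6Q arrays and without WT array 2 or 3, and 6 with the period block.

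Of 54 small nucleolar and nuclear RNAs, which guide modification and cleavage of ribosomal RNA or act in splicing, 10 fell, 1 rose and 43 were not called (median -0.37), and the falls were near the 16.3% of all genes. SNR67 had 2204.7, 2716.4 and 4442.7 on H3K6Q arrays and 15704.6, 10177.8 and 29335.3 on WT arrays (-2.49 ± 0.43, adjusted p = 0.00121). SNR66 had 171.7, 138.9 and 139.8 on H3K6Q arrays and 792.9, 772.9 and 335.6 on WT arrays, and SNR61 had 1098.9, 1082.9 and 1075.3 on H3K6Q arrays against 4690.3, 3960.2 and 2431.3 on WT arrays. They fell by 1.98 and 1.71. SNR76 rose by 1.17 and lost that call without WT array 2 (adjusted p = 0.12). The period block left 3 falls, SNR67 among them and SNR66 and SNR61 not. Without H3K6Q array 1, without H3K6Q array 2 and without WT array 1 the numbers of falls were 4, 5 and 6.

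Genes of reserve carbohydrates were higher in H3K6Q. Of 20 glycogen and trehalose genes 15 rose and 5 were not called, with a median log2 change of 1.33, while 13.3% of all genes rose. The median, relative to the WT mean, ran from 1.10 to 1.57 on H3K6Q arrays and from -0.46 on WT array 2 to 0.51 on WT array 1. GPH1, glycogen phosphorylase, had 4600.7, 4064.0 and 3759.2 on H3K6Q arrays and 1359.5, 249.5 and 1071.5 on WT arrays. TSL1, a trehalose synthase subunit, had 2897.0, 2725.4 and 1614.4 on H3K6Q arrays against 1148.4, 215.4 and 528.3 on WT arrays. PGM2, phosphoglucomutase, had 2515.1, 2582.9 and 1990.9 on H3K6Q arrays against 793.5, 364.3 and 459.1 on WT arrays. The groups did not overlap for GPH1, TSL1 or PGM2, which rose by 2.53 ± 0.46, 2.20 ± 0.46 and 2.20 ± 0.29 on the log2 scale. The period block left 8 rises among the 20, at a median of 1.32, and GPH1 (adjusted p = 0.0812) and TSL1 (adjusted p = 0.0703) were not among them. With the chip lot as a block 3 rose.

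Hexose kinases and transporters rose in 6 of 14 cases (median 1.03). HXK1, the hexokinase that glucose represses, had 10742.0, 9751.7 and 8556.7 on H3K6Q arrays and 3401.8, 275.2 and 2625.3 on WT arrays. It rose by 2.84 ± 0.66 with all arrays and by 1.69 without WT array 2, and it was not called with the period block (adjusted p = 0.225). GLK1, glucokinase, rose by 1.81 ± 0.34 and kept its call with that block, whereas HXT4, a glucose transporter gene, rose by 1.90 ± 0.47 and did not (adjusted p = 0.172). Only 2 of the 14 rose with the block. Of 16 glycolytic genes 3 rose, near the 13.3% of all genes: HXK2 by 0.95, TDH1 by 0.95 and PDC5 by 0.60. All 3 calls were lost with the period block, and 1 gene rose without H3K6Q array 2. In the galactose list 2 of 6 rose, GAL10 by 1.28 ± 0.25 and GAL2 by 0.69 ± 0.24, and GAL2 lost its call with the period block (adjusted p = 0.096), without H3K6Q array 2 or 3 and without WT array 2 or 3.

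Fatty acid oxidation genes showed rises as well, and the number of rises in gluconeogenesis and glyoxylate genes depended on single arrays. By comparison, 13.3% of all genes rose. Of 14 fatty acid oxidation genes 8 rose (median 0.77), and 7 rose with the period block (median 0.93), although 1 rose with the chip lot as a block. SPS19, a peroxisomal reductase, had 977.9, 1456.1 and 1254.7 on H3K6Q arrays and 596.9, 358.5 and 394.2 on WT arrays (1.47 ± 0.21, adjusted p = 0.000373). ECI1, an isomerase of the same pathway, rose by 1.29 and CAT2, carnitine acetyltransferase, rose by 1.25. Of 17 gluconeogenesis and glyoxylate genes 6 rose (median 0.47). CIT2, the peroxisomal citrate synthase, had 3229.6, 2930.2 and 2440.7 on H3K6Q arrays and 766.6, 757.2 and 492.9 on WT arrays (2.11 ± 0.40), and ICL2 had 1165.7, 1230.9 and 1320.1 on H3K6Q arrays against 328.9, 373.6 and 258.0 on WT arrays (1.97 ± 0.21). SFC1, a mitochondrial carrier, rose by 0.85 and lost its call with the period block (adjusted p = 0.119), which left 3 rises. When arrays were left out in turn the rises in this list ran from 2 (without H3K6Q array 1 or 3) to 6, with 3 without H3K6Q array 2 and without WT array 2 or 3.

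The TCA cycle and respiratory chain had 15 of 49 genes higher and 34 not called (median 0.31), while 13.3% of all genes rose. CIT1, the mitochondrial citrate synthase, had 5395.2, 8741.9 and 8499.5 on H3K6Q arrays and 3466.9, 1497.2 and 2450.7 on WT arrays (1.66 ± 0.31). KGD2, a subunit of alpha-ketoglutarate dehydrogenase, rose by 1.46, and SDH4, a subunit of succinate dehydrogenase, by 1.32. The rises numbered 7 without WT array 2, 9 without H3K6Q array 1, 8 without H3K6Q array 2 and 5 with the period block. Of 5 transcripts of the mitochondrial genome tested 1 fell, near the 16.3% of all genes. That was ATP6, under the floor on all H3K6Q arrays (56.3, 5.6 and 76.4) and on WT array 1 (123.0), and at 495.0 and 322.9 on the other WT arrays. It was not called without any 1 of the H3K6Q arrays or without WT array 2 or 3 (adjusted p = 0.107 without WT array 2), nor with the period block (adjusted p = 0.111). Of 10 hypoxic genes 5 rose (median 0.48) and 4 rose with the period block. CYC7, the minor cytochrome c gene, had 931.7, 851.8 and 696.9 on H3K6Q arrays and 315.1, 102.1 and 131.4 on WT arrays (2.16 ± 0.37). COX5B, the hypoxic cytochrome oxidase subunit, rose by 1.87 ± 0.32 and the ADP/ATP carrier gene AAC3 by 0.84 ± 0.19.

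Oxidative stress defence had 16 of 31 genes higher and 15 not called, with a median of 0.75, and the period block left 12 rises at the same median of 0.75. The chip lot as a block left 10. By comparison, 13.3% of all genes rose without a block. SRX1, sulfiredoxin, had 1019.0, 1067.8 and 892.1 on H3K6Q arrays and 232.6, 358.4 and 154.5 on WT arrays (2.08 ± 0.24, adjusted p = 9.17e-05). OYE3, a flavin oxidoreductase, had 1210.9, 1183.4 and 1363.5 on H3K6Q arrays against 397.4, 310.7 and 346.6 on WT arrays (1.84 ± 0.16, adjusted p = 1.87e-05). GTT1, a glutathione transferase, rose by 2.29 ± 0.25. SRX1, OYE3 and GTT1 stayed called in all alternatives that were run. Autophagy genes rose in 15 of 33 cases (median 0.60) and in 8 with the period block. ATG33, which acts in the turnover of mitochondria, had 3559.2, 3321.9 and 4000.6 on H3K6Q arrays and 542.7, 249.8 and 742.1 on WT arrays (2.96 ± 0.31). ATG42, a vacuolar carboxypeptidase, rose by 2.16 and ATG19, the receptor that carries the APE1 product to the vacuole, by 1.62.

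Chaperone genes went both ways, with 9 of 30 higher, 4 lower and 17 not called (median 0.25). Over all genes 13.3% rose and 16.3% fell, so the chaperone falls were not above that share. HSP26, a small heat shock protein gene, had 7300.2, 7275.7 and 5228.3 on H3K6Q arrays and 1925.9, 1022.5 and 846.2 on WT arrays (2.46 ± 0.42). HSP78, a mitochondrial disaggregase, rose by 1.51 and HSP31 by 1.40, while FES1, an exchange factor of cytosolic Hsp70, fell by 0.98. The period block left 2 higher and 1 lower, at a median of -0.12. The number lower was 1 without H3K6Q array 2, without H3K6Q array 3 and without WT array 2. Proteasome genes fell in 11 of 33 cases (median -0.47) and in 1 with the period block. RPN4, the transcription factor for these genes, had 1008.6, 935.9 and 968.4 on H3K6Q arrays and 3015.6, 2634.5 and 1270.4 on WT arrays, so that WT array 3 lay nearest to H3K6Q. RPN4 fell by 1.15 and was not called with the period block (-0.39, adjusted p = 0.39). PRE6 and PUP1, core subunits, fell by 0.89 and 0.85. Without H3K6Q array 1, without H3K6Q array 2 and without WT array 2 the proteasome falls numbered 7, 5 and 5.

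In the sulfur and methionine list 9 of 33 genes rose and 1 fell (median 0.54), and 9 rose with the period block (median 0.89). By comparison, 13.3% of all genes rose and 16.3% fell without a block. MET17, which joins sulfide to homoserine, had 16629.5, 19319.4 and 22987.1 on H3K6Q arrays and 2428.1, 9947.6 and 2765.9 on WT arrays. WT array 2 was the WT array nearest to H3K6Q, and the same held for MET6, methionine synthase (3084.7, 2598.5 and 2690.5 on H3K6Q arrays against 463.8, 1833.3 and 709.4 on WT arrays). MET17 rose by 2.26 ± 0.39, MET6 by 1.72 ± 0.46 and MET3, ATP sulfurylase, by 1.39 ± 0.21. MET31, a zinc-finger regulator of the pathway, fell by 1.18. Without WT array 2, 18 of the 33 rose. MET6 lost its call without WT array 1. With the period block MET6 and MET31 also lost their calls, at log2 changes of 1.97 and -0.80.

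Of 50 amino acid synthesis genes 13 rose, 6 fell and 31 were not called (median 0.13). Over all genes 13.3% rose and 16.3% fell, so the falls in this list were a smaller share. ARG1, argininosuccinate synthase, had 8501.8, 7483.7 and 9259.6 on H3K6Q arrays and 1556.8, 1673.8 and 1051.5 on WT arrays (2.58 ± 0.32, adjusted p = 0.000125). ARG4, the next enzyme of arginine synthesis, had 7559.6, 7147.4 and 7303.8 on H3K6Q arrays against 3248.1, 3194.5 and 2616.9 on WT arrays (1.29 ± 0.16), and HIS4 rose by 1.68 ± 0.28. ILV3, in branched-chain synthesis, fell by 1.17 (3693.4, 5039.4 and 4290.9 on H3K6Q arrays, 12045.1, 8435.3 and 9025.0 on WT arrays). The period block left 10 rises and 1 fall. The number lower was 2 without H3K6Q array 2 and without WT array 1, and 3 without H3K6Q array 3. In purine synthesis 4 of 15 rose and 2 fell (median 0.24), the falls again a smaller share than over all genes. With the period block 3 rose and 2 fell. ADE17, which carries out the last steps to IMP, had 4407.3, 2495.0 and 3795.8 on H3K6Q arrays and 387.3, 906.6 and 284.7 on WT arrays (2.90 ± 0.49). SHM2, a serine hydroxymethyltransferase, rose by 1.82 ± 0.41 and ADE1, an earlier step of the pathway, by 1.61 ± 0.27. AAH1, adenine deaminase, fell by 1.81 (1191.5, 949.2 and 854.9 on H3K6Q arrays, 3370.2, 5149.5 and 2382.5 on WT arrays).

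Over all genes tested 16.3% fell and 13.3% rose. In ergosterol synthesis 7 of 23 fell and 2 rose (median -0.11), and 1 fell with the period block. HMG1, an HMG-CoA reductase gene, had 2773.3, 2737.4 and 2495.4 on H3K6Q arrays and 5047.2, 5391.8 and 6660.4 on WT arrays (-1.09 ± 0.15) and was that 1 gene. ERG5 and ERG7 fell by 1.21 and 1.18, and ERG20 rose by 0.75. Without WT array 2, 3 of the list fell and without H3K6Q array 2, 4 fell, and 1 rose without H3K6Q array 1 or 2 or WT array 2. Of 20 phospholipid and inositol genes 4 fell and 2 rose (median -0.08), near the shares of all genes. OPI3, the last methyltransferase of phosphatidylcholine synthesis, had 4206.7, 4149.2 and 4266.1 on H3K6Q arrays and 2328.2, 1237.7 and 938.8 on WT arrays, and rose by 1.59 ± 0.33. HNM1, the choline transporter, fell by 0.80, ACC1, acetyl-CoA carboxylase, by 0.70, and INO2, an activator of the list, by 0.90. INO2 signals overlapped between the groups (359.1, 205.9 and 165.5 on H3K6Q arrays, 337.0, 633.9 and 372.6 on WT arrays) and the call was lost without WT array 2 (adjusted p = 0.17) and without H3K6Q array 2 or 3. OPI3 alone was called with the period block. In this list 2 genes fell without H3K6Q array 2 or WT array 2, and 1 rose without H3K6Q array 1 or 2. The phosphate list had 4 of 14 lower and 1 higher (median -0.30). PHO84, the high-affinity transporter, had 1162.3, 1112.8 and 1437.1 on H3K6Q arrays and 2327.3, 11174.4 and 3373.7 on WT arrays, where WT array 2 stood alone. The period block ended the calls of PHO84, VTC4 and PHO81 (adjusted p = 0.205, 0.205 and 0.252), left no fall in the list and brought its median to -0.05. PHO84 fell by 1.85 ± 0.46, and by 1.19 without WT array 2. VTC4 and PHO81 fell by 0.83 and 0.61 and neither was called without WT array 2 (adjusted p = 0.124 and 0.179) or without any 1 of the H3K6Q arrays, while PHO8, the vacuolar phosphatase, rose by 0.86 and was not called with the period block (adjusted p = 0.088). In the phosphate list 1 gene fell without H3K6Q array 1, without H3K6Q array 2 and without WT array 2, and 2 without H3K6Q array 3, while 2 rose without WT array 1 or 2. In the iron regulon 1 of 26 rose (COT1, by 0.52), a smaller share than the 13.3% of all genes. With the period block 2 genes rose, COT1 not among them (adjusted p = 0.0843). Without WT array 2, 5 rose, without WT array 3, 4 fell, and COT1 was not called without WT array 1 or any 1 of the H3K6Q arrays.

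**Figure D3:**
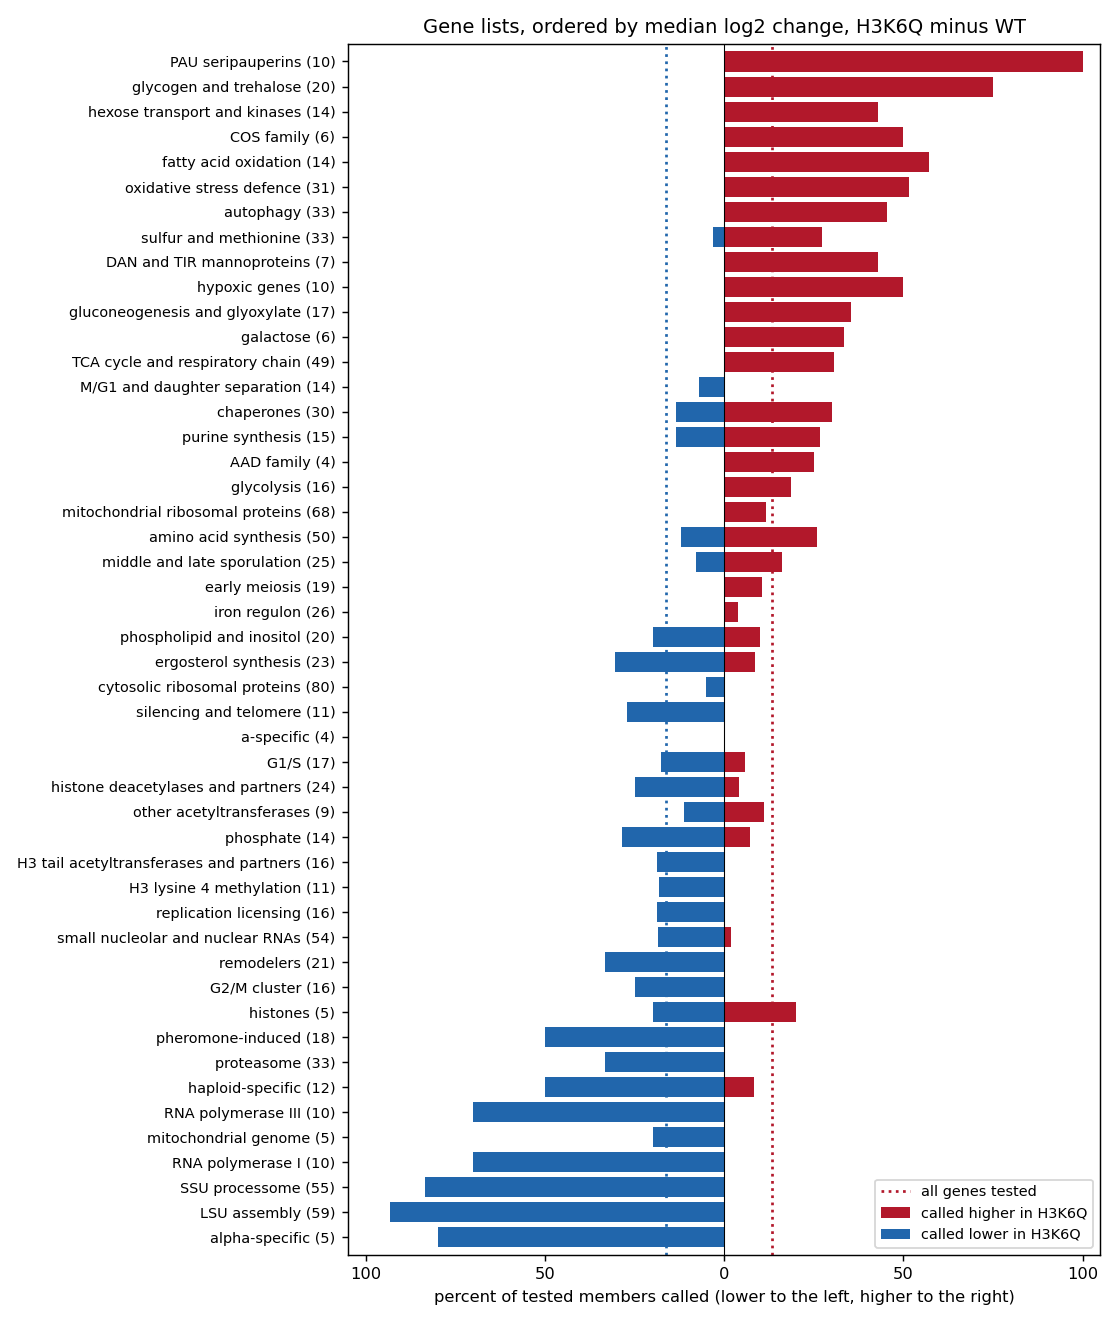
For each gene list with at least 4 tested members (number in brackets), the bar to the right gives the percent called higher in H3K6Q and the bar to the left the percent called lower, and dotted lines give the same over all genes tested (13.3% higher, 16.3% lower). All 10 PAU genes tested were higher, and the SSU processome (46 of 55) and large-subunit assembly (55 of 59) have the longest blue bars beside the alpha-specific genes (4 of 5).

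Mating genes were among the largest falls, and MF(ALPHA)2 fell the most of all genes. In yeast of the alpha mating type the alpha-specific genes encode the pheromone alpha-factor, the receptor for a-factor and the alpha-agglutinin, while haploid-specific genes carry the pheromone signal in both mating types. Of 5 alpha-specific genes 4 fell (median log2 change -2.32, beside -0.10 over all genes), while 16.3% of all genes fell. The median was -2.07 with the period block and -2.21 with the chip lot block, both of which rest on WT array 3 alone. MF(ALPHA)2, the minor alpha-factor gene, had 1503.0, 1069.8 and 813.7 on H3K6Q arrays and 12060.8, 10551.3 and 17896.4 on WT arrays, a 12.0-fold fall (-3.59 ± 0.43, adjusted p = 0.000101). SAG1, the agglutinin, had 3131.5, 2293.2 and 2056.1 on H3K6Q arrays against 10455.7, 15815.2 and 19224.8 on WT arrays (-2.58 ± 0.29). STE3, the receptor, had 583.2, 423.5 and 460.9 on H3K6Q arrays against 2612.3, 2659.1 and 2040.4 on WT arrays (-2.32 ± 0.20, adjusted p = 1.87e-05). AFB1, the a-factor barrier gene, fell by 1.80 (3059.3, 2450.6 and 2689.1 on H3K6Q arrays, 7599.0, 10358.5 and 10923.3 on WT arrays). The major alpha-factor gene MF(ALPHA)1 was not called, with 19916.4, 19402.2 and 22459.9 on H3K6Q arrays and 19529.6, 23840.1 and 40152.2 on WT arrays (-0.37 ± 0.26, adjusted p = 0.321). RNA of a whole culture does not tell fewer cells expressing a gene from less RNA per cell.

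Of 7 a-specific genes, which encode the a-factor and its export and the response to alpha-factor, 4 passed the filter on low signals. MFA1, MFA2, BAR1 and STE6 changed by -0.18, -0.20, -0.17 and 0.34, and all 4 missed the threshold. MFA1 had 265.7, 248.1 and 215.1 on H3K6Q arrays and 210.7, 437.2 and 222.8 on WT arrays. HMRA1, which is transcribed where silencing fails, was under the floor on all H3K6Q arrays (49.7, 66.2 and 18.2) and on WT arrays 2 and 3, and read 145.9 on WT array 1, at a probe set of a kind that can bind other sequences.

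Of 12 haploid-specific genes 6 fell, 1 rose and 5 were not called (median -0.63), and 4 fell with the period block. By comparison, 16.3% of all genes fell and 13.3% rose without a block. SST2, which ends signalling by the pheromone G protein, had 549.8, 395.8 and 389.2 on H3K6Q arrays and 1837.6, 2565.5 and 2101.8 on WT arrays (-2.29 ± 0.23, adjusted p = 3.65e-05). FAR1, which arrests the cell cycle in response to pheromone, had 914.5, 720.6 and 833.7 on H3K6Q arrays against 5049.2, 2690.7 and 4049.8 on WT arrays (-2.22 ± 0.23). GPA1, the alpha subunit of the G protein, fell by 1.49 (320.8, 263.1 and 220.5 on H3K6Q arrays, 631.4, 816.6 and 793.0 on WT arrays). RME1, a repressor of meiosis, rose by 1.30 ± 0.41, with 423.9 on WT array 2 against 1848.9 and 1498.0 on WT arrays 1 and 3, and was not called without WT array 2 (0.64, adjusted p = 0.074) or without any 1 of the H3K6Q arrays. Of 18 pheromone-induced genes 9 fell (median -0.47) and 8 fell with the period block. PRM4 fell by 1.81, FUS1, a cell fusion gene, by 1.72 (314.9, 289.2 and 287.2 on H3K6Q arrays, 627.6, 1209.5 and 1236.2 on WT arrays) and AGA1, an agglutinin subunit, by 1.65.

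The PAU seripauperins, a family of near-identical cell wall protein genes that lie mostly near chromosome ends, rose in all 10 tested cases, with a median of 1.62, and in all 10 under every left-out array. By comparison, 13.3% of all genes rose. The PAU median was 1.53 with the period block and 1.44 with the chip lot block, both of which rest on WT array 3 alone. Only 10 of the 24 genes in the gene table have a probe set of their own, and these can bind the RNA of relatives, so the family's rise cannot be divided among its members. PAU10 had 5008.1, 4603.6 and 5916.2 on H3K6Q arrays and 1549.4, 1235.5 and 1449.7 on WT arrays (1.87 ± 0.16, adjusted p = 1.87e-05). PAU17, PAU4 and PAU23 rose by 1.88, 1.70 and 1.60. Of 7 DAN and TIR mannoprotein genes, cell wall genes of anaerobic growth, 3 rose (median 0.51). DAN1 had 615.2, 671.2 and 616.8 on H3K6Q arrays and 348.7, 326.9 and 293.3 on WT arrays (0.98 ± 0.16), TIR3 rose by 1.41 ± 0.28, and the other member that rose was PAU23. The count was 5 without WT array 3 and 2 with the period block, where TIR3 lost its call (adjusted p = 0.0773). The COS family, another set of chromosome-end genes, had 3 of 6 higher (median 0.84). COS8 rose by 1.39 (3434.9, 2594.5 and 3156.0 on H3K6Q arrays, 1636.5, 1096.7 and 865.0 on WT arrays), and COS4 and COS7 rose by 1.07 each. COS4 lost its call with the period block (adjusted p = 0.0675). The AAD family had too few tested genes to set against the 13.3% of all genes that rose, and 1 of 4 rose. That was AAD10, whose log2 change of 0.97 became 0.62 with the period block and was then not called (adjusted p = 0.263).

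When genes were ranked by their order from the nearer chromosome end, 16 of the 58 tested genes of ranks 1 to 5 rose and 2 fell, which is 27.6% and 3.45%, with a median log2 change of 0.20. The share that rose was 22.4% for ranks 6 to 10, 17.7% for ranks 11 to 20, 13.4% for ranks 21 to 40 and 12.6% for genes beyond rank 40, and the share that fell was 7.76%, 12.9%, 16% and 16.9% in the same order. The bar plot of calls by rank shows these shares. Many of the outermost genes belong to families whose probe sets bind relatives, and silent genes that never passed the floor are not counted. Of the 16 outermost genes that rose, 8 were PAU or COS genes, all on probe sets of a kind that can bind other sequences. With the PAU and COS genes left out, a count chosen after seeing the data, 8 of 47 genes of ranks 1 to 5 rose (17%) and 2 fell (4.26%). The shares that rose were then 21.1% for ranks 6 to 10, 17.4% for ranks 11 to 20, 13.2% for ranks 21 to 40 and 12.6% beyond, so that the outermost class was no longer the highest.

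**Figure D4:**
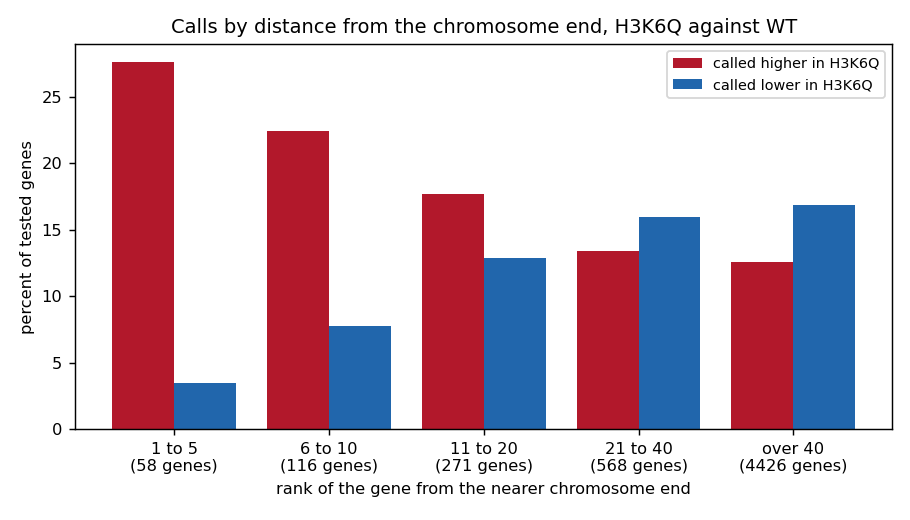
Percent of tested genes called higher (red) and lower (blue) in H3K6Q than in WT, by the rank of the gene from the nearer chromosome end, with the number of genes under each pair of bars. The share called higher is 27.6% in the 58 outermost genes and 12.6% in the 4426 innermost ones, and it is 17% in the outermost genes without the PAU and COS families.

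Meiotic genes changed little as a group. Of 19 early meiosis genes that passed the filter, of 27 with a probe set of their own, 2 rose, near the share of all genes, and the median was 0.01. DMC1, the meiotic recombinase, had 363.8, 320.2 and 317.1 on H3K6Q arrays and 190.5, 139.3 and 198.7 on WT arrays (0.93 ± 0.25), and IME2, a kinase of meiotic entry, rose by 0.88 ± 0.23. DMC1 was not called without WT array 2 (adjusted p = 0.0639) or with the period block (adjusted p = 0.221). Of 25 middle and late sporulation genes 4 rose, near the 13.3% of all genes, and 2 fell, a smaller share than the 16.3% (median 0.13). With the period block 4 rose and 1 fell. SPO75 had 661.3, 606.3 and 653.8 on H3K6Q arrays and lay under the floor on all WT arrays (38.0, 22.2 and 51.7). It rose at least 4.56-fold (adjusted p = 5.02e-06), the fold being taken against the floor, and was called in all alternatives that were run. LOH1 rose by 1.32 and SPS1 by 0.92 (2 of the list rose without WT array 2), while SSP1 fell by 1.32 (190.3, 165.7 and 190.3 on H3K6Q arrays, 432.7, 543.1 and 396.1 on WT arrays).

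Of 16 replication licensing genes 3 fell, near the 16.3% of all genes (median -0.34), all subunits of the replicative helicase: MCM7 by 1.20, MCM6 by 0.89 and MCM3 by 0.84. MCM6 lost its call with the period block (adjusted p = 0.0817). MCM7 had 376.3, 388.0 and 302.0 on H3K6Q arrays and 952.7, 755.1 and 736.1 on WT arrays. Of 17 G1/S genes 3 fell, also near that share, and 1 rose. RNR1, ribonucleotide reductase, had 2858.8, 2521.9 and 2736.0 on H3K6Q arrays against 7801.3, 5247.3 and 5693.1 on WT arrays (-1.19 ± 0.22), RAD27 fell by 1.03 and POL1 by 0.67, and the G1 cyclin CLN2 rose by 0.84. These 4 genes all lost their calls with the period block. The G2/M cluster had 4 of 16 lower (median -0.44), among them HST3 by 1.08, the mitotic cyclin CLB2 by 0.82 and the polo kinase CDC5 by 0.80. That count was 1 without H3K6Q array 1 and without WT array 2, and all 4 calls were lost without WT array 1 and with the period block. The 14 M/G1 and daughter separation genes had a median of 0.26. It was -0.16 without WT array 2, -0.36 with the period block and -0.37 with the chip lot as a block. Of the 14 genes 1 fell, a smaller share than the 16.3% of all genes, and 3 rose without WT array 3. That gene was SUN4, which fell by 1.02 and lost its call with the period block (adjusted p = 0.101).

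The counts for chromatin genes are read against the 13.3% of all genes that rose and the 16.3% that fell. Of 5 histone genes that share no probe set HTB2 fell by 0.62 and CSE4, the centromeric H3 variant, rose by 0.65, and both calls were lost without H3K6Q array 1 or 2 and without WT array 1 or 2 (adjusted p = 0.104 and 0.0553 without WT array 2). CSE4 also lost its call without H3K6Q array 3 and WT array 3, and 3 histone genes fell without WT array 3. HTB2 and CSE4 were not called with the period block (adjusted p = 0.303 and 0.311). HTB1 (-0.10), HTZ1 (-0.62) and HHO1 (-0.45) were not called. HTZ1, the H2A variant, read 1932.6, 1806.0 and 2138.1 on H3K6Q arrays and 3868.0, 3891.8 and 1789.1 on WT arrays, where WT array 3 lay just below the H3K6Q values. Of 16 genes of H3 tail acetyltransferases and partners 3 fell, near the share of all genes (median -0.33): HFI1 by 1.04, the acetyltransferase gene SAS3 by 0.70 and SPT8 by 0.54. All 3 lost their calls with the period block (adjusted p = 0.186, 0.642 and 0.417). The acetyltransferase gene GCN5, looked up after the list was counted, was not called (-0.53 ± 0.24, adjusted p = 0.12), and 1 of the list fell without H3K6Q array 2 or 3 or WT array 1 or 2. Of 9 other acetyltransferase genes SAS4 rose by 1.37 ± 0.22 (888.8, 710.8 and 726.3 on H3K6Q arrays, 321.4, 318.5 and 262.0 on WT arrays), and SAS2, the catalytic partner of the SAS4 product, fell by 0.94 with a call that was lost without WT array 1 or 2 and without H3K6Q array 1 or 2 (adjusted p = 0.0961 without WT array 2) and with the period block (adjusted p = 0.367). In the H3 lysine 4 methylation list 2 of 11 fell, near the share of all genes, the ubiquitin ligase gene BRE1 by 1.03 and SWD3 by 0.80, and both calls were lost with the period block and that of BRE1 without WT array 2 (adjusted p = 0.0523). Among 24 genes of histone deacetylases and partners 6 fell and 1 rose. HST1, a Sir2 relative, had 889.5, 1084.4 and 1032.8 on H3K6Q arrays and 2533.0, 2827.7 and 2346.3 on WT arrays (-1.36 ± 0.19), HST4 fell by 0.74, and RXT3 rose by 0.71. Falls in that list numbered 1 without WT array 2, 2 without WT array 1 or H3K6Q array 1 or 2, 3 without H3K6Q array 3, and 1 with the period block.

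In the silencing and telomere list 3 of 11 fell. ABF1 and RAP1, general regulators that bind silencers as well as many promoters, fell by 1.77 and 1.46, and SUM1, a repressor of middle sporulation genes, fell by 0.82. RAP1 had 366.0, 344.7 and 299.2 on H3K6Q arrays and 1148.9, 1154.6 and 597.5 on WT arrays, and neither RAP1 nor ABF1 was called with the period block (adjusted p = 0.11 and 0.126). SUM1 was called with it, but not without H3K6Q array 3. Of 21 remodeler genes 7 fell (median -0.41) and 1 fell with the block. RSC8, a subunit of RSC, had 162.8, 415.1 and 655.9 on H3K6Q arrays and 1017.0, 666.5 and 2069.2 on WT arrays, a wide spread within both groups (-1.66 ± 0.46), and its call was lost without H3K6Q array 1 (adjusted p = 0.0727) and without WT array 3 (adjusted p = 0.0589). SWI1 and SNF6, subunits of SWI/SNF, fell by 1.14 and 0.88. Without H3K6Q array 1 or 2 or WT array 1 the falls numbered 4.

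H3K6Q was next set directly against H3tailD, to ask whether changing lysines and removing residues 1 to 28 of H3 differ. H3tailD arrays were of the earlier sampling period and H3K6Q arrays of the later one, so that period and genotype cannot be told apart, and the header of H3tailD array 2 names another strain than its label. Of 5447 genes limma called 22 lower in H3K6Q (0.404%) and 0 higher, and at an unadjusted p under 0.05 it gave 855 lower and 153 higher. Scaling moved this split. Among probe sets, 3 (0.0382%) were called higher and 28 (0.357%) lower, but 48 and 15 with arrays centred on their medians and 12 and 9 after quantile normalization, and the median over all probe sets moved to 0.00 with median centring from -0.14. PCK1, the first enzyme of gluconeogenesis, had 1180.1, 1563.1 and 1111.1 on H3K6Q arrays and 8906.3 and 5989.7 on H3tailD arrays (-2.52 ± 0.41, adjusted p = 0.0224). SNR67, SNR61 and SNR66 fell by 2.44, 2.41 and 2.40, and DCG1 by 1.35. SNR61 had 1098.9, 1082.9 and 1075.3 on H3K6Q arrays and 6807.1 and 4873.9 on H3tailD arrays. PDR18 had the lowest adjusted p of the 22 (0.000413) and was at least 2.31-fold lower, lying under the floor on all H3K6Q arrays (92.4, 104.5 and 31.9), against 312.0 and 335.4 on H3tailD arrays. Also among the 22 were CTT1, catalase T (-1.04), UTP22 (-1.18), UTP10 (-0.80) and HST4 (-1.25). PDR18, CTT1, UTP10 and others beyond the 5 largest were picked after their values were seen. Of the 55 SSU processome genes UTP22 and UTP10 were called and of the 59 large-subunit genes all missed the threshold, at medians of -0.41 and -0.40 beside -0.19 over all genes. The 10 PAU genes all missed it too (median 0.72), and MF(ALPHA)2, SAG1 and STE3 differed by -0.13, 0.00 and -0.38 and were not called. Probe-set calls numbered 3 without H3K6Q array 2, without H3K6Q array 3 and without H3tailD array 2, and 10 without H3K6Q array 1.

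Against H4K4Q, which carries the same kind of substitution in the other tail, 551 genes were higher in H3K6Q (10.1%) and 159 lower (2.92%). Both H4K4Q arrays were of 1 sampling day that no H3K6Q array shares, so that day and genotype cannot be told apart, though both groups were of the later period. At 2-fold or more 268 genes were higher (4.92%) and 77 lower (1.41%). Among probe sets 602 (7.67%) were higher and 331 (4.22%) lower, but 545 and 549 with arrays centred on their medians. The call counts numbered 464, 524 and 599 without H3K6Q arrays 1, 2 and 3 and 233 and 359 without H4K4Q arrays 1 and 2, against 933 with all. ADE17 had 4407.3, 2495.0 and 3795.8 on H3K6Q arrays and 235.4 and 239.3 on H4K4Q arrays (3.87 ± 0.54, adjusted p = 0.00138). ADE1 had 4825.3, 3960.3 and 5916.7 on H3K6Q arrays against 493.3 and 362.7 on H4K4Q arrays (3.52 ± 0.30, adjusted p = 5.93e-05), and 5 of the 15 purine genes were higher. FIT2, a cell wall mannoprotein for siderophore iron, had 1781.8, 2300.1 and 2028.7 on H3K6Q arrays against 190.2 and 294.4 on H4K4Q arrays (3.10 ± 0.34). YDL241W and MGT1, a DNA repair methyltransferase gene, were higher by 3.52 and 2.82.

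Among mating genes the alpha-specific ones were lower and some haploid-specific ones higher in H3K6Q than in H4K4Q. MF(ALPHA)2 had 1503.0, 1069.8 and 813.7 on H3K6Q arrays and 12295.1 and 14126.1 on H4K4Q arrays (-3.59 ± 0.48, adjusted p = 0.000836), and 4 of 5 alpha-specific genes were lower in H3K6Q (median -1.65, with 2.92% of all genes lower). SAG1 was lower by 1.65 and STE3 by 1.89. Of 12 haploid-specific genes 4 were higher in H3K6Q (median 0.64, with 10.1% of all genes higher). HMRA1, under the floor on all H3K6Q arrays, was lower, with a floored log2 change of -1.05 against 273.9 and 308.7 on H4K4Q arrays. CAR2, an arginine breakdown enzyme, was at 6806.8, 9429.5 and 4775.7 on H3K6Q arrays and 28045.9 and 24761.6 on H4K4Q arrays (-1.97 ± 0.31). YOR342C, GIT1 (a transporter of glycerophosphoinositol) and SNR38 were lower by 2.01, 1.94 and 1.94. Of the ribosome-building genes 4 of 55 SSU processome genes were higher and 2 lower, and 10 of 59 large-subunit genes were higher, at medians of 0.26 and 0.35 beside 0.12 over all genes. Over all genes 10.1% were higher and 2.92% lower, and the SSU processome counts were near these shares. All 10 PAU genes missed the threshold (median -0.43).

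**Figure D5:**
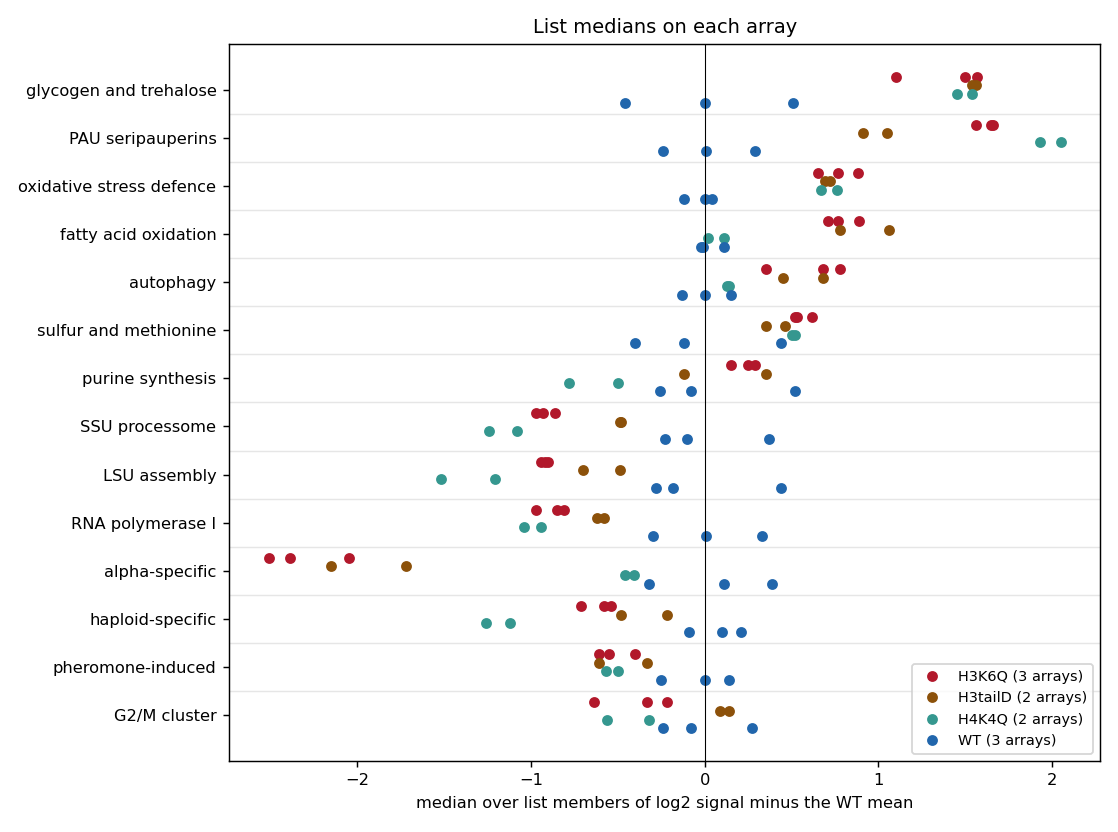
Median over the tested members of 14 gene lists of the log2 signal minus the WT mean, with 1 point per array for H3K6Q (red), H3tailD (brown), H4K4Q (green) and WT (blue). For the alpha-specific genes H3K6Q lies at -2.05 to -2.51 and H4K4Q at -0.46 and -0.41, for the SSU processome H3K6Q lies between H3tailD and H4K4Q, and WT array 2 is high for the ribosome-building lists and low for glycogen and trehalose.

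The same genes side by side show the 3 mutants, which share their WT arrays in any comparison with it. DPI8 had 7439.0, 7188.6 and 8501.5 on H3K6Q arrays, 3779.9 and 3559.9 on H3tailD arrays and 3053.8 and 3566.9 on H4K4Q arrays, with 588.7, 911.7 and 531.3 on WT arrays. The direct difference of H3K6Q from H4K4Q was called (1.22, adjusted p = 0.0435) and that from H3tailD was not (1.07, adjusted p = 0.149). RTC3 differed little between the mutants, with 2837.7, 2748.7 and 1924.4 on H3K6Q arrays, 2403.9 and 2694.4 on H3tailD arrays and 2339.3 and 2844.2 on H4K4Q arrays (differences of -0.05 and -0.06, not called). SNO1 and SNZ1 were higher in H3K6Q than in H4K4Q by 1.93 and 1.46 (adjusted p = 0.0437 and 0.0323). INA1 was lower in H3K6Q than in H4K4Q by 0.76 (adjusted p = 0.0366), with 1119.4, 1275.7 and 1493.2 on H3K6Q arrays and 2116.7 and 2257.7 on H4K4Q arrays.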

How the data were processed

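Values deposited by the authors are linear intensities, 1 for each probe set on each array. The trimmed means of the columns ran from 1501 to 1502, so the authors had scaled the arrays to a common 2% trimmed mean. The sources used here name no probe-level software. Array type and chip lot come from other fields, run settings in the deposited scans per the file headers, and sampling days from the labels.

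Arrays were rescaled to the pooled trimmed mean of 1501, 60 control probe sets were left out, signals were floored at 140.2 and log2 values were computed from the deposited intensities. A limma 3.58.1 model (R 4.3.3) took in all 18 arrays, with group means and a trended variance (10 residual and 3.763 prior degrees of freedom), with two-sided tests and Benjamini-Hochberg adjustment over 7851 probe sets per contrast. Errors of log2 changes are standard errors.

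Symbols were updated through the R64 gene table for all 6504 probe sets that name 1 gene, and each gene is read on its brightest probe set. Of 275 genes with several tested probe sets, 3 had calls in opposite directions, and only 176 had all their probe sets on the same side of 0. The genes, lists (49) and comparisons were chosen with earlier results of these data known, so lists get counts and medians and no test. Named were the 15 largest rises and falls without overlap between groups and with the higher group above the floor throughout, the leading called members of each list (3 in the direction of its median and 1 in the other), all tested members of the short mating and histone lists, RPD3, and the 5 largest in each direction of the contrasts with other mutants. Promoter and protein sequences were not used here.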

Additional observations from a re-analysis of the deposited data

How the results depend on the processing

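H3K6Q against WT gave 2004 called probe sets. The count was 940 with only the 6 arrays of both groups, 677 with the sampling period as a block (443 higher, 234 lower), 418 with the chip lot as a block (376 of them shared), 987 at an adjusted p under 0.01 and 815 at 2-fold or more, and it ran from 1340 (without WT array 2) to 2320 (without WT array 3) with arrays left out in turn. The other alternatives, covering scaling, floor, filter, variance trend, random day block, averaging of the day that H3K6Q arrays 1 and 2 share, actin ratio and exclusion of arrays whose headers name another strain, gave 1399 to 2104. Splits were 1063 higher and 996 lower after quantile normalization and 1084 and 934 with median centring, against 925 and 1079. H3K6Q against H3tailD gave 31 calls, which became 63 with median centring, 10 with a floor at the 10th percentile, 15 with an offset of 50 in place of the floor, 7 with day as a random block, 8 with the actin ratio as a covariate, and 3 to 27 with arrays left out. H3K6Q against H4K4Q gave 933, which became 471 with a floor at the 50th percentile, 436 with day as a random block, and 233 to 599 with arrays left out. With the replicate block the counts were 2127, 5 and 1037, although same-numbered H3K6Q and WT arrays correlated at 0.115, -0.159 and 0.141 in their deviations from group means, and not every array correlated best with its own number, so that the pairing by number was not borne out. Of the 159 named genes called against WT, 73 lost their calls with the period block, 91 with the chip lot block, 64 with 6 arrays and 30 without WT array 2, and none turned its direction in any alternative that kept a call. Fewer arrays enter several of these fits; otherwise the cause was not tested. Dim genes are limited by the floor, which understates their changes.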

Other observations

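Calls varied with signal level, taken as the mean on the 12 arrays of other genotypes. Of the 1362 dimmest genes 6.61% rose and 12.8% fell in H3K6Q against WT, and of the 1362 brightest 18.9% rose and 17.8% fell. Among 309 tested probe sets that name several genes 18.8% rose and 5.18% fell, and among 1462 without a gene symbol 7.46% rose and 8.34% fell.

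The 35 genes that were under the floor on H3K6Q array 1 alone include bright ones. ASN1, an asparagine synthetase gene, read 34.5, 11271.9 and 13168.0 on H3K6Q arrays and 4095.3, 11362.1 and 9677.4 on WT arrays. PRX1, the mitochondrial peroxiredoxin, read 134.9, 3300.3 and 2960.6 on H3K6Q arrays and 735.7, 574.8 and 496.6 on WT arrays, so that arrays 2 and 3 lay above WT and array 1 below it, and it was not called (adjusted p = 0.467). DIG1, a repressor of mating genes, read 2.5, 1349.5 and 1359.5 on H3K6Q arrays and 1370.4, 1466.6 and 1853.0 on WT arrays. ASN1, PRX1 and DIG1 were picked after their values were seen.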
